A study of Mus musculus with 12 samples.

Results

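The miR-15/16 and miR-103/miR-107 families were followed in mouse brain by miRNA-Seq, through 7 of the 469 mature miRNAs listed in the count data: mmu-miR-15a, mmu-miR-15b, mmu-miR-16, mmu-miR-195 and mmu-miR-497 (miR-15/16 family, 5 members) and mmu-miR-103 and mmu-miR-107 (miR-103/miR-107 family, 2 members). Members were chosen by name, without their star strands, and all 7 were listed and passed the filter of at least 2 counts in total in a region. The samples were frontal cortex (FCx) and hippocampus (HP) of untreated C57BL/6J mice aged 8 weeks. For each region the RNA of 3 mice was combined in a pool, from which 3 libraries were made. The libraries differ in a short index tag at the end of the 5′ adaptor that is ligated to the first base of the miRNA. Every library was sequenced alone in a lane (individual lane) and again in a lane shared with the other indexes (pooled lane), and these counts were added up. The p-values below therefore measure the spread between libraries of the same RNA, not between animals, and in such bulk tissue fewer cells of a type cannot be told apart from less of a miRNA per cell.

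miRNAs guide Argonaute proteins to partly complementary sites in mRNAs, and pairing of the seed (bases 2 to 8) largely decides which mRNAs are repressed. The miR-15/16 family is known for restraining the cell cycle and for targeting the survival factor Bcl2, and mmu-miR-15a and mmu-miR-16 come from a locus that is often lost in chronic lymphocytic leukaemia. mmu-miR-195 and mmu-miR-497 are made from a shared cluster and are known from muscle and vascular tissue. mmu-miR-103 and mmu-miR-107 lie in introns of the Pank genes, which encode pantothenate kinases of coenzyme A synthesis, and are known for targeting Dicer and for roles in insulin signalling.

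The mature sequences (RefSeq, table of GRCm38.p6, with entries for 7 of the 7 members) are shown because the seeds define both families and because the members differ by few bases. The seed is in capitals.
mmu-miR-15a: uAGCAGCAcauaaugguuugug
mmu-miR-15b: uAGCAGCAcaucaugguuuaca
mmu-miR-16: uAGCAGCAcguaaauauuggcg
mmu-miR-195: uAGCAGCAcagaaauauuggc
mmu-miR-497: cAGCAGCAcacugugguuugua
mmu-miR-103: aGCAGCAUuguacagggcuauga
mmu-miR-107: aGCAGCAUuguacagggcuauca

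The 5 miR-15/16 members had the seed AGCAGCA, which 10 of the 1679 mature mouse miRNAs of the table carry. mmu-miR-103 and mmu-miR-107 had the seed GCAGCAU, and no other entry had it (2 of 1679). The seeds overlap when shifted by 1 base, since each miR-103/miR-107 member begins with A where the miR-15/16 seed begins at base 2. Positions counted from 1 at the 5′ end, mmu-miR-103 and mmu-miR-107 differed only by G22C. Nearly all alignments on these miRNAs were 22 nt long, so the base that tells them apart was the last base read. mmu-miR-16 and mmu-miR-195 differed by G10A and U11G over 21 bases. mmu-miR-15a and mmu-miR-15b differed by A12C, G20A and U21C over the same length. With up to 2 mismatches allowed in the alignment, counts of mmu-miR-16 against mmu-miR-195 and of mmu-miR-103 against mmu-miR-107 can be shared between the partners and are uncertain to that extent.

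The index tags are shown because the largest differences of these miRNAs lay between indexes. The capital marks the last base of the tag, to which the miRNA is joined.
index 3: uuaggC
index 7: cagauC
index 11: ggcuaC

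On the genome (NCBIM37) the miRNAs came from 9 hairpins. Mir15a, whose arms span chr14:62250875-62250933, and Mir16-1 (chr14:62250717-62250809) lie on the minus strand in an intron of the long non-coding RNA Dleu2. Mir15b (chr3:68813694-68813757) and Mir16-2 (chr3:68813824-68813918) lie on the plus strand in an intron of Smc4, a condensin subunit. Mir497 (chr11:70048219-70048302) and Mir195a (chr11:70048544-70048637) are intergenic on the plus strand. Mir103-1 (chr11:35595898-35595983, plus) lies in an intron of Pank3, Mir103-2 (chr2:131113788-131113873, plus) in an intron of Pank2 and Mir107 (chr19:34895177-34895263, minus) in an intron of Pank1. The sequences of mmu-miR-16 and mmu-miR-103 are each made by 2 hairpins, so their mature counts do not tell the source gene.

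The libraries held 391410 to 1461732 counts on miRNAs in FCx and 3206221 to 4956117 in HP. Levels are given as CPM, the counts scaled to 1000000 miRNA counts of a library, with 95% exact binomial intervals where an interval is quoted for a single library. Intervals cover counting error only, since reads without molecular identifiers are not independent molecules. The neuronal miRNAs mmu-miR-124, mmu-miR-9 and mmu-miR-128 together reached 241123 to 271724 CPM in FCx and 103071 to 167715 CPM in HP, so that neuronal miRNAs were abundant in each library. The largest part was mmu-miR-128, at 177013 to 208464 CPM in FCx and 63974 to 110495 CPM in HP. The regions overlapped for mmu-miR-9 (17202 to 36936 CPM in FCx, 23927 to 57807 in HP) and for mmu-miR-124 (4091 to 57775 in FCx, 2504 to 39174 in HP). The higher sum in FCx was thus not shared by each of them. The sum of 3 erythrocyte miRNAs (mmu-miR-451, mmu-miR-144 and mmu-miR-486) ranged from 64.4 to 172 CPM in FCx and from 35.0 to 165 CPM in HP, with mmu-miR-144 at 1.56 CPM or less. mmu-miR-143 and mmu-miR-145, of vascular smooth muscle and pericytes, summed to 199 to 578 CPM in FCx and 183 to 689 CPM in HP. Nearly all of this sum was mmu-miR-143, since mmu-miR-145 reached only 1.37 to 12.8 CPM in FCx and 4.37 to 9.13 in HP. For endothelium, the mmu-miR-126 markers summed to 74.6 to 113 CPM in FCx and 89.6 to 149.5 CPM in HP. Since miR-15/16 members are also known from blood and vessel cells, these levels stand beside theirs. Their part in the results was not tested.

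mmu-miR-103 and mmu-miR-107 made up nearly all counts of the members. In FCx the pair held 98.4% (index 3), 98.9% (index 7) and 96.4% (index 11) of the counts of the 7 miRNAs. In HP it held 98.5%, 99.2% and 94.7%. The 7 miRNAs together took 1.18% of the miRNA counts in FCx and 1.66% in HP as means over libraries. By mean CPM, mmu-miR-103 ranked 17 of 469 in FCx and 16 in HP, and mmu-miR-107 ranked 25 and 19. mmu-miR-16 was much less abundant, at rank 143 in FCx and 124 in HP, and the other 4 members ranked between 192 and 290.

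mmu-miR-103 was counted at 11137, 12073 and 1065 CPM in the FCx libraries of index 3, 7 and 11. In HP it was counted at 10551, 23708 and 995 CPM. The index 11 library was low in each region, the index 7 library of HP stood above all others, and the regions overlapped. The means were 8092 ± 6103 CPM for FCx and 11751 ± 11404 CPM for HP (SD over 3 libraries each).

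mmu-miR-107, which shares all but its last read base with mmu-miR-103, was counted at 5478, 4625 and 439.9 CPM in FCx and at 4685, 8963 and 393 CPM in HP, in the same order of indexes. The means were 3514 ± 2696 CPM for FCx and 4680.4 ± 4285 CPM for HP (SD over 3 libraries each). mmu-miR-103 was above mmu-miR-107 in 6 of 6 libraries, and each library that was high or low for one was high or low for the other, except that in FCx index 3 was highest for mmu-miR-107 and index 7 for mmu-miR-103.

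mmu-miR-16, the most abundant miR-15/16 member, was counted at 169, 86.9 and 36.8 CPM in FCx, from 66, 127 and 24 counts. In HP it was counted at 142, 170.1 and 47.4 CPM, from 455, 843 and 192 counts. The index 11 libraries were again the lowest, and the FCx library of index 7 lay well below the HP library of index 7. mmu-miR-16 was above mmu-miR-195, mmu-miR-497, mmu-miR-15a and mmu-miR-15b in 6 of 6 libraries, and below mmu-miR-107 in 6 of 6.

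mmu-miR-195 was counted at 48.5, 11.6 and 4.60 CPM in FCx and at 44.6, 23.2 and 12.6 CPM in HP, and so was highest with index 3 in each region. mmu-miR-497, from the same cluster, was counted at 23.0, 47.2 and 12.3 CPM in FCx and at 25.6, 38.7 and 7.89 CPM in HP, and so was highest with index 7. mmu-miR-195 exceeded mmu-miR-497 in 3 libraries and fell below it in the other 3, so these neighbours in the order of levels were not separated. In the index 7 libraries mmu-miR-497 was above mmu-miR-195 in each region, and in the index 3 libraries below it.

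mmu-miR-15a was counted at 15.3, 32.2 and 1.53 CPM in FCx, the last from 1 count (interval 0.0388 to 8.54 CPM). In HP it was counted at 9.98, 28.4 and 5.18 CPM. It was below mmu-miR-195 in 4 of 6 libraries and above it in 2. mmu-miR-15b was the least abundant member, with 13 counts in FCx and 58 in HP, at 7.66, 6.16 and 1.53 CPM and at 6.24, 4.44 and 3.95 CPM. mmu-miR-15a was above mmu-miR-15b in 5 of 6 libraries and equal to it in the FCx library of index 11, where each had 1 count.

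**Figure D1:**
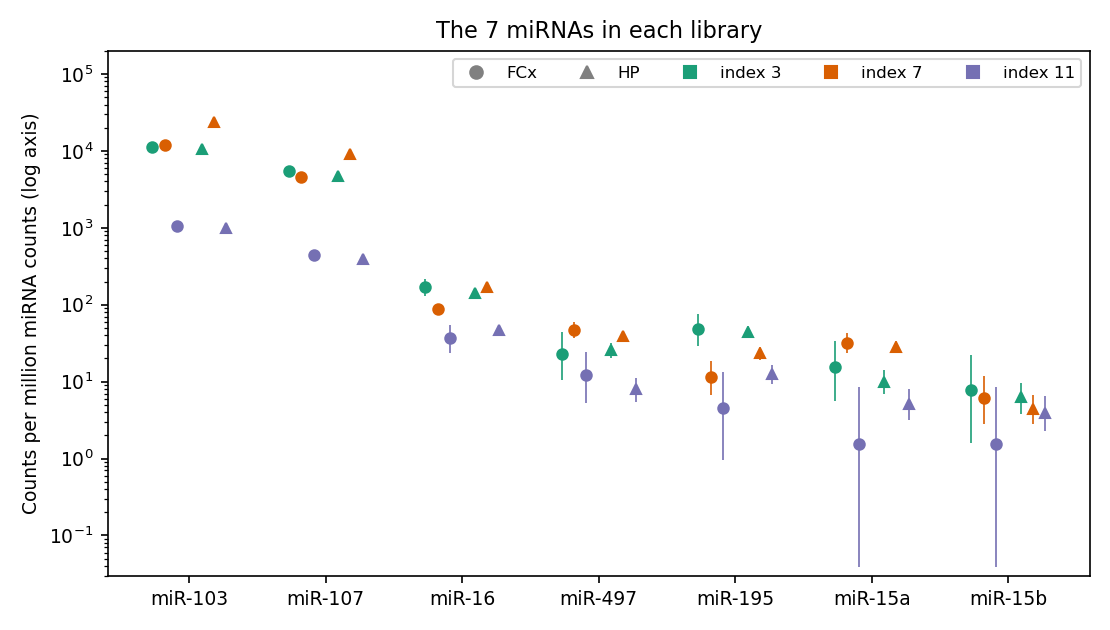
CPM (log axis) of the 7 miRNAs in each library, with 95% exact binomial intervals. Circles are FCx, triangles HP, and colours are the 3 indexes. mmu-miR-103 and mmu-miR-107 sit above mmu-miR-16 in 6 of 6 libraries, and for each miRNA the index 11 library is the lowest of its region.

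Within the miR-15/16 family, mmu-miR-16 held 58.7 ± 9.97% of the counts in FCx and 62.6 ± 1.39% in HP (SD, n = 3 each). The FCx library of index 7 was the one that stood apart, at 47.2% (Wilson 95% interval 41.3 to 53.2% of 269 counts), against 61.5 to 64.9% in the other 5. mmu-miR-497 held 25.7% in that library (20.8 to 31.2%) and 14.6% in the HP library of the same index (12.8 to 16.6%). mmu-miR-15a held 17.5% (13.4 to 22.5%) against 10.7% (9.18 to 12.5%). The shares of mmu-miR-195 and mmu-miR-15b lay between 6.32 and 19.5% and between 1.68 and 5.13% over all libraries.

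The question the study put to these libraries was which miRNAs differ between FCx and HP. No member passed the test. With edgeR's quasi-likelihood test and Benjamini-Hochberg adjustment over 431 miRNAs, 0 of 7 members were called at an adjusted p under 0.05, where 0.464% of all miRNAs tested were called. No member had an unadjusted p under 0.05 either, nor did any with DESeq2 or edgeR's exact test. FCx over HP gave a log2 fold change of -0.75 for mmu-miR-103 (SE 1.05, adjusted p = 0.992 by edgeR), -0.68 for mmu-miR-107 (SE 1.06), -0.71 for mmu-miR-16 (SE 0.82) and -0.90 for mmu-miR-195 (SE 0.97). It was -0.32 for mmu-miR-15b (SE 0.92), 0.04 for mmu-miR-15a (SE 1.10) and 0.03 for mmu-miR-497 (SE 0.94). These values are on the scale of the TMM normalization, on which the median of all miRNAs was -0.37, against 0.03 with library totals, and on the latter the value of mmu-miR-15b was 0.05. The standard error exceeded the size of the value for 7 of 7 members in this fit, which left out the index. With the index as a block, as given below, it was 0.30 for mmu-miR-103 and mmu-miR-107, 0.29 for mmu-miR-16 and 0.37 for mmu-miR-195. These were below the size of their values, whereas for mmu-miR-15a, mmu-miR-15b and mmu-miR-497 it still exceeded the value.

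The index pairs an FCx with an HP library, and the region could be compared within each index. mmu-miR-103 had an FCx over HP ratio of CPM of 1.06 with index 3 (95% counting interval 1.02 to 1.09) and 1.07 with index 11 (0.986 to 1.16), but of 0.509 with index 7 (0.501 to 0.517). mmu-miR-107 gave 1.17 (1.12 to 1.22), 1.12 (0.982 to 1.27) and 0.516 (0.503 to 0.529). In CPM, FCx was thus well below HP for this pair with index 7 and at or slightly above it with the other indexes. On the TMM scale it was below HP with each index: there the ratios with index 3, 7 and 11 were 0.626, 0.573 and 0.671 for mmu-miR-103 and 0.693, 0.580 and 0.701 for mmu-miR-107. Over all libraries the median log2 fold change of all miRNAs on that scale was -0.37, so values below HP there were not particular to this pair.

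mmu-miR-16 gave ratios of 1.19 with index 3 (0.904 to 1.54), 0.511 with index 7 (0.420 to 0.616) and 0.777 with index 11 (0.486 to 1.19). mmu-miR-195 gave 1.09 (0.637 to 1.76), 0.501 (0.282 to 0.838) and 0.365 (0.0730 to 1.13). On the TMM scale the ratios were 0.704, 0.574 and 0.487 for mmu-miR-16 and 0.645, 0.564 and 0.229 for mmu-miR-195, below 1 with each index. The median of all miRNAs over all libraries also lay below HP on that scale (log2 fold change -0.37). In CPM, mmu-miR-15a, mmu-miR-15b and mmu-miR-497 gave 0.296 to 1.55 over the 3 indexes, and none of their 9 intervals left out a ratio of 1. A CPM ratio of 0.501 to 0.516 with index 7 was thus shared by mmu-miR-103, mmu-miR-107, mmu-miR-16 and mmu-miR-195, and was not seen for mmu-miR-497 (1.22, interval 0.912 to 1.61) or mmu-miR-15a (1.13, interval 0.795 to 1.58).

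**Figure D2:**
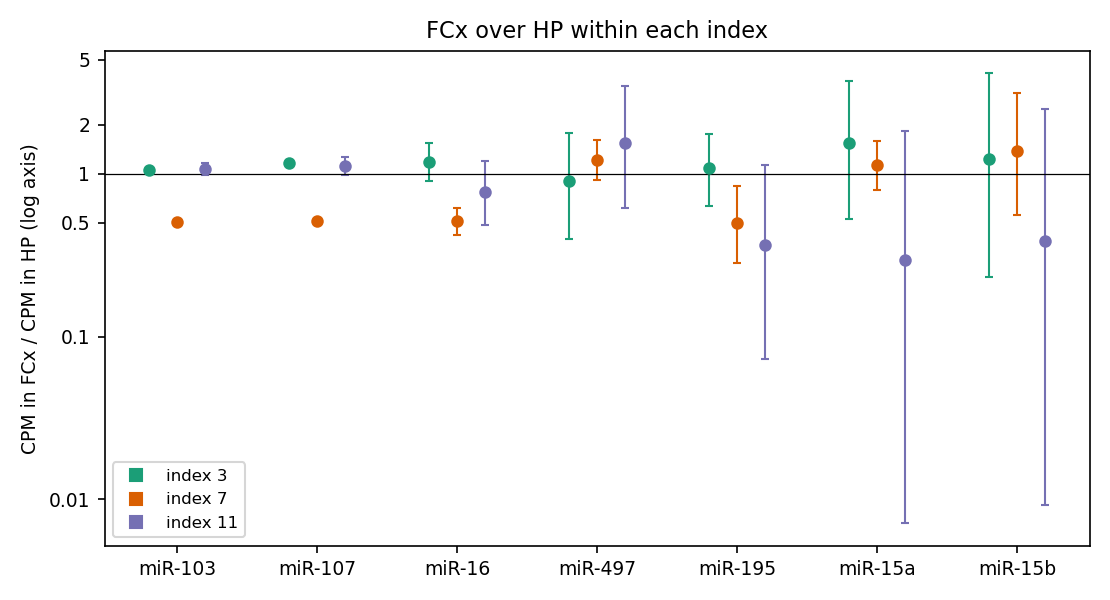
Ratio of CPM in FCx to CPM in HP within each index (log axis) for the 7 miRNAs, with 95% counting intervals and a line at 1. With index 7, mmu-miR-103, mmu-miR-107, mmu-miR-16 and mmu-miR-195 sit between 0.501 and 0.516, while their index 3 values sit between 1.06 and 1.19. On the TMM scale, which is not plotted, these index 3 values were 0.626 to 0.704, and the median log2 fold change of all miRNAs over all libraries was -0.37.

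Other miRNAs also had lower ratios with index 7. Over the 139 miRNAs whose mean reached 100 CPM, the median log2 ratio of FCx over HP, on log2(CPM + 1), was 0.23 with index 3, -0.20 with index 7 and 0.17 with index 11. Of these 139, 18 had an index 7 value at least as far below the lower of the other indexes as mmu-miR-103 (-1.05), 17 as far as mmu-miR-107 (-1.11) and 39 as far as mmu-miR-16 (-0.60). Each index was used once per region, so this dependence of the region ratio on the index was not tested.

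With the index as a block in the edgeR fit, 2 of 7 members were called lower in FCx, where 17.9% of all miRNAs were called in either direction. Of the 431 tested, 55 were called lower and 22 higher in FCx, and the median log2 fold change was -0.38. The 2 members were mmu-miR-16 (log2 fold change -0.77, SE 0.29, adjusted p = 0.0423 by edgeR) and mmu-miR-195 (-0.98, SE 0.37, adjusted p = 0.0497 by edgeR). mmu-miR-103 (-0.69, SE 0.30) and mmu-miR-107 (-0.61, SE 0.30) had adjusted p-values of 0.104 and 0.153 in that fit by edgeR. With library totals in place of TMM, 13% of all miRNAs and none of the 7 were called in the blocked edgeR fit, none had an unadjusted p under 0.05, and mmu-miR-16 and mmu-miR-195 had adjusted p-values of 0.601 and 0.379. Without the libraries of index 7, the blocked fit with TMM called 0 of 7, with none at an unadjusted p under 0.05, where 10.1% of all miRNAs were called. The log2 fold changes were then -0.40 for mmu-miR-16 (SE 0.30), -0.69 for mmu-miR-195 (SE 0.47), -0.30 for mmu-miR-103 (SE 0.17) and -0.20 for mmu-miR-107 (SE 0.18).

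Differences between the indexes were larger than those between the regions. The study asked whether tags with different sequences ligate to miRNAs differently. From correlations of whole profiles between indexes it reported no major ligation bias and treated the indexes as technical replicates. The test below is another measure, since it looks at each miRNA by itself. The test of the index, with the region in the model, called 6 of 7 members at an adjusted p under 0.05 by edgeR, where 61.3% of all miRNAs were called. The adjusted p was 1.03e-17 for mmu-miR-103, 3.99e-18 for mmu-miR-107, 2.86e-06 for mmu-miR-15a, 6.27e-05 for mmu-miR-497, 0.00039 for mmu-miR-16 and 0.000764 for mmu-miR-195, by edgeR. mmu-miR-15b, with 71 counts in all, did not pass (adjusted p = 0.873 by edgeR). Without the FCx library of index 7, 2 of 7 members passed, where 49.1% of all miRNAs did, and without each other single library 4 to 6 passed, where 50.8 to 59.2% of all miRNAs did.

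The fitted log2 ratio of index 11 over index 3 was farthest from 0 for the miR-103/miR-107 members, at -2.89 for mmu-miR-103 (SE 0.40) and -3.10 for mmu-miR-107 (SE 0.39). For mmu-miR-195 it was -1.69 (SE 0.45), for mmu-miR-16 -1.34 (SE 0.36), for mmu-miR-497 -0.98 (SE 0.45) and for mmu-miR-15a -0.82 (SE 0.56). With single libraries left out, it ranged from -2.80 to -0.15 for mmu-miR-15a, from -1.14 to -0.24 for mmu-miR-497 and from -2.64 to -1.14 for mmu-miR-195, against -2.89 to -2.69 for mmu-miR-103. The median of all miRNAs on this scale was -0.22, and -0.67 with library totals. In CPM, mmu-miR-103 was 10.5 and 11.3 times lower with index 11 than with the other indexes in FCx and 10.6 and 23.8 times lower in HP. For mmu-miR-107 these ratios were 10.5 and 12.5 for FCx and 11.9 and 22.8 for HP. The pooled lane over the individual lane gave ratios of 0.882 to 1.28 for this pair over the 6 libraries.

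Index 7 against index 3 split the miR-15/16 members, and mmu-miR-15a and mmu-miR-195 were farthest from 0. The fitted log2 ratio was 1.62 for mmu-miR-15a (SE 0.47) and 0.97 for mmu-miR-497 (SE 0.40), against -1.13 for mmu-miR-195 (SE 0.42) and 0.01 for mmu-miR-16 (SE 0.34), for which index 7 over index 3 in CPM was 0.515 in FCx and 1.20 in HP. For mmu-miR-103 it was 0.99 (SE 0.37) and for mmu-miR-107 0.70 (SE 0.36). Over 21 bases mmu-miR-16 and mmu-miR-195 differ only by G10A and U11G, so their counts can be shared between them, as said above. mmu-miR-15a, mmu-miR-16 and mmu-miR-195 have an identical first 9 bases at the joined end. The part of the sequence in these index ratios was not tested.

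Index 11 was the lowest index for 7 of 7 members in each region. Of the same 139 miRNAs, 55 had index 11 lowest in both regions and 13 were at least 4-fold below each other index in both regions. mmu-miR-103 and mmu-miR-107 were among the latter. Measured from the lower of the other indexes, 1 miRNA of the 139, itself, fell at least as far as mmu-miR-107 in both regions. Likewise, 2 fell at least as far as mmu-miR-103 in both regions, and 23 at least as far as mmu-miR-16.

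**Figure D3:**
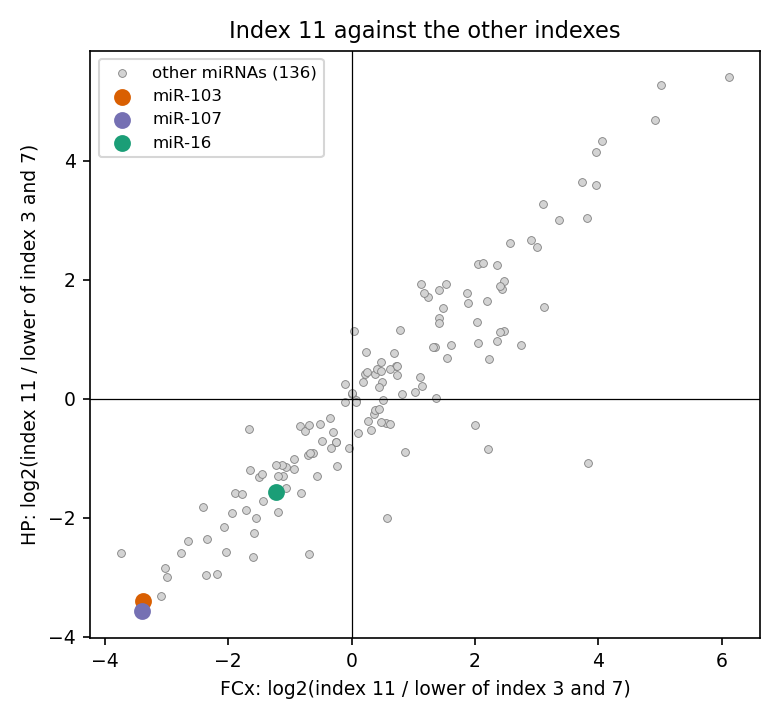
Log2 ratio of index 11 to the lower of index 3 and 7 in FCx (horizontal axis) and HP (vertical axis) for the 139 miRNAs whose mean reached 100 CPM. mmu-miR-103 and mmu-miR-107 lie at the lower left end of the cloud, where index 11 is 10.5 to 11.9 times below the lower of the other indexes, and mmu-miR-16 lies below 0 on each axis.

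The miRNAs whose levels followed the members most closely over the 6 libraries are given as a description, with Pearson's r of log2(CPM + 1) among 136 candidates that share the same libraries and depth. For mmu-miR-103 they were mmu-miR-125b* (r = 0.993), mmu-miR-152 (0.989) and mmu-miR-221 (0.988). For mmu-miR-107 they were mmu-miR-181d (0.989), mmu-miR-125b* (0.988) and mmu-miR-152 (0.987). mmu-miR-16 was followed by mmu-miR-495 (0.983), mmu-miR-330* (0.970) and mmu-miR-369-5p (0.963). mmu-miR-103 and mmu-miR-107 correlated with each other at r = 0.997, and mmu-miR-195 and mmu-miR-497 at 0.366, the lowest of the 21 pairs of members. The points of these correlations share the indexes, and in CPM index 11 was low for 7 of 7 members.

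The share of mmu-miR-103 in the counts of mmu-miR-103 plus mmu-miR-107 does not depend on how a library is scaled. In FCx it was 67.0, 72.3 and 70.8% for index 3, 7 and 11. In HP it was 69.3, 72.6 and 71.7%. Index 3 was lowest and index 7 highest in each region. The means were 70.0 ± 2.71% in FCx and 71.2 ± 1.71% in HP (SD, n = 3 each), with a difference of -1.12 percentage points that did not pass a two-sided exact permutation test (p = 0.6, and 3 against 3 libraries cannot go below 0.1). Within each index the share was lower in FCx (3 of 3 pairs), and the index 3 intervals did not overlap (65.9 to 68.2% and 68.8 to 69.7%). Paired by index, the exact permutation test gave p = 0.25, the smallest that 3 pairs allow. When the index 3 library was left out of FCx only, the difference was 0.38 points.

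The same share was higher when reads were placed on the genome. Of the alignments on the strand of the hairpins, mmu-miR-103 held 74.2, 80.0 and 79.1% for FCx (index 3, 7 and 11) and 77.0, 80.7 and 78.5% for HP, so each of the 6 libraries was 6.80 to 8.29 points higher than in its counts. Over all libraries the genome held 0.909 alignments per count of mmu-miR-103 but 0.588 per count of mmu-miR-107. For mmu-miR-16 the figure was 0.991, for mmu-miR-195 0.874, for mmu-miR-497 0.862, for mmu-miR-15b 0.746 and for mmu-miR-15a 1.05. The region comparison of the share was alike with alignments (77.8 ± 3.13% in FCx, 78.7 ± 1.86% in HP, SD, n = 3 each, exact permutation p = 0.7).

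**Figure D4:**
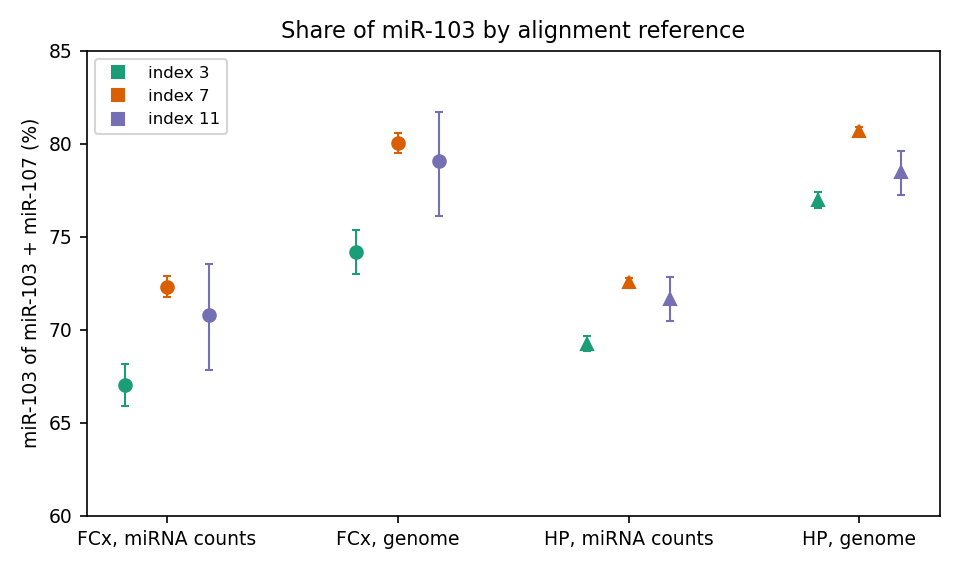
Percent of mmu-miR-103 in mmu-miR-103 plus mmu-miR-107 in miRNA counts and in genome alignments, by region and index, with 95% Wilson intervals, on an axis that does not start at 0. The genome shares (74.2 to 80.7%) sit above the shares in counts (67.0 to 72.6%), and index 3 is the lowest point of each group.

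On the genome, the reads of mmu-miR-103 fell evenly on its identical copies, with 49.8% of 161853 at Mir103-1. Those of mmu-miR-16 fell 32.6% of 1692 at Mir16-1 and the rest at Mir16-2. As the copies are identical in sequence, the place of a read does not tell which hairpin it came from. The star strands, which arise from the other arm of the hairpin and are usually degraded, were rare. mmu-miR-16* had 19 counts in FCx (217 for mmu-miR-16) and 67 in HP (1490 for mmu-miR-16). mmu-miR-15a* had 3 and 10, and mmu-miR-15b* had 2 and 6. On the genome the opposite arms of Mir195a and Mir497 had 0 alignments, which allows up to 3, and 304 and 338 fell on their mature arms. Only 2 alignments lay on the opposite strand of the 9 hairpins, at Mir497.

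Of the relatives outside the members, mmu-miR-322, which carries the seed AGCAGCA, had 6 counts in FCx and 25 in HP, at 2.56 ± 0.51 and 2.06 ± 0.52 CPM (SD, n = 3 each). Its star strand mmu-miR-322* was more abundant, at 45.2 ± 18.4 and 43.2 ± 12.8 CPM. mmu-miR-503, made from the same cluster as mmu-miR-322 and with the seed AGCAGCG, reached 4.56 ± 4.38 and 7.24 ± 8.33 CPM and was called by the index test (adjusted p = 8.44e-06 by edgeR). mmu-miR-503* had 2 and 6 counts. Neither these relatives nor the star strands were called between the regions.

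The 5′ ends of the reads, which set the seed, were precise. Of the alignments of mmu-miR-16 99.1% began at the annotated first base, of mmu-miR-103 98.0% and of mmu-miR-107 96.5%. mmu-miR-497 was the exception, with 13.6% (46 of 338, Wilson 95% interval 10.4 to 17.7%) beginning 1 base downstream, which skips its initial c and leaves the base sequence of the other family members' seed at positions 1 to 7. With index 11 it was 0 of 8 alignments in FCx and 1 of 30 in HP, against 9 of 52 and 24 of 167 with index 7. Only 59.8% of the mmu-miR-497 alignments were 22 nt long, against 98.0% for mmu-miR-16.

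The shifted ends of mmu-miR-103 and mmu-miR-107 followed the index in both regions. With index 3, 4.17% of the mmu-miR-103 alignments in FCx (interval 3.59 to 4.84%) and 3.67% in HP (3.46 to 3.89%) began 1 base downstream. With index 7 it was 0.893% (0.759 to 1.05%) and 0.618% (0.573 to 0.666%), and with index 11 it was 0.935% (0.429 to 2.02%) and 0.623% (0.415 to 0.933%). mmu-miR-107 began there in 7.24% (5.98 to 8.74%) and 8.29% (7.74 to 8.87%) with index 3, against 1.93% (1.55 to 2.40%) and 1.33% (1.20 to 1.48%) with index 7. With index 11 the ends lay 2 bases downstream instead, in 3.58% (2.40 to 5.32%) and 4.68% (4.05 to 5.41%) of the mmu-miR-103 alignments, against 0.222 to 0.559% in the other 4 libraries. For mmu-miR-107 with index 11 this was 1 of 170 alignments in FCx and 12 of 1014 in HP. The index 3 and index 7 intervals of the 1-base shift did not overlap in either region, whereas those of index 7 and index 11 overlapped for mmu-miR-103 in each region. These differences between indexes in the 5′ ends were not tested beyond the counting intervals.

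**Figure D5:**
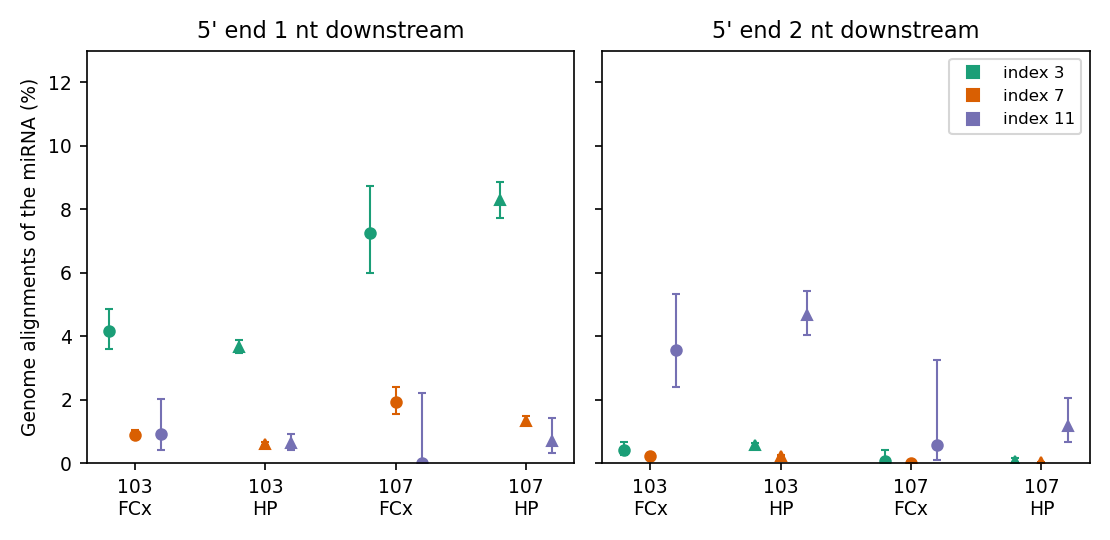
Percent of genome alignments of mmu-miR-103 and mmu-miR-107 whose 5′ end lies 1 nt (left) or 2 nt (right) downstream of the annotated end, by region and index, with 95% Wilson intervals. Index 3 is highest in the left panel (3.67 to 8.29%) and, for mmu-miR-103, index 11 in the right panel (3.58 and 4.68%).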

How the data were processed

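Small RNA of FCx and HP was sequenced in 6 libraries and 12 lane files (for each region, index 3, 7 and 11 as replicate 1, 2 and 3, taken from the labels). According to the study's methods, reads were sorted and trimmed by index, reads that were adaptor dimers, homopolymers, ribosomal, mitochondrial or short were removed, and the rest was aligned with Bowtie (version not given in the sources used here) with up to 2 mismatches to mature miRNAs of miRBase and to the genome NCBIM37. The count values, as deposited by the authors, are whole reads per mature miRNA and lane, without normalization. The alignment files deposited by the authors hold a score of 255 in every line, which was not used, and the position, length and strand of each alignment, which were. They still hold alignments under 14 nt, the length below which the study removed reads. Their part ranged from 1.135% (HP, index 11) to 22.44% (FCx, index 3).

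Both lanes of a library were summed and miRNAs not listed in a lane were set to 0. CPM used the total miRNA counts of a library. FCx and HP, and the indexes with region in the model, were compared in edgeR 4.0.16 (R 4.3.3) by its quasi-likelihood test with TMM, with Benjamini-Hochberg adjustment over 431 miRNAs (FCx or HP total of 2 counts or more), and a miRNA was called at an adjusted p under 0.05. DESeq2 1.42.0, library totals, other filters, single lanes and libraries left out were alternatives. The SE given with an edgeR log2 value is its size divided by the square root of the F statistic of the quasi-likelihood test of that coefficient. It therefore restates that test and is no separate measure. Whether the index pairs the libraries was checked on log2 CPM centred within each region. Libraries of the same index correlated at r of 0.748 to 0.841 over the 431 miRNAs, so the fit with the index as a block is reported where it alters a call. Those of different indexes correlated at -0.580 to -0.244. These negative values follow from the positive ones, since the 3 centred libraries of a region cancel out, and are no further sign of pairing. The script was tested on simulated data. Sequences and hairpins were read from RefSeq tables and matched by sequence to NCBIM37, with GENCODE vM1 for genes. Reads at a hairpin are alignments that overlap it on its strand, each given to the arm it overlaps most. Intervals are 95%, by Wilson's method for shares and exact for counts and ratios of counts, and 3 counts were the limit allowed by 0. Python 3.11.15, pandas 2.3.3, numpy 2.4.6, scipy 1.17.1 and matplotlib 3.10.9 were used. All 7 members were named, then 2 relatives and the star strands, then the 3 miRNAs closest in pattern to mmu-miR-103, mmu-miR-107 and mmu-miR-16. Members and lists were chosen with earlier results of these data known.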

Additional observations from a re-analysis of the deposited data

Results flagged for a closer look

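In CPM, mmu-miR-107 moved in opposite directions between index 3 and index 7 in the regions. Index 7 over index 3 was 0.844 in FCx and 1.91 in HP by CPM. The individual and the pooled lane agreed in direction, with 0.810 and 0.914 for FCx and 2.04 and 1.74 for HP. The difference was not tested, since each index occurs once per region. The opposite directions of mmu-miR-107 were seen in CPM only. On the TMM scale, with factors of 1.582 for index 3 and 0.9028 for index 7 in FCx, index 7 was above index 3 in each region. In CPM, mmu-miR-103 had index 7 above index 3 in each region, at 1.08 in FCx and 2.25 in HP. mmu-miR-16 also differed in direction by the summed lanes, at 0.515 in FCx and 1.20 in HP, but its pooled lane in HP gave 0.926.

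The opposite arms of the miR-103/miR-107 hairpins, for which the counts list no star strand, carried alignments on the genome. The 5′ arm of Mir103-1 (mmu-miR-103-1-5p) had 19, that of Mir103-2 (mmu-miR-103-2-5p) 62 and that of Mir107 (mmu-miR-107-5p) 33 over all libraries, each above the 3 that a count of 0 allows. Unlike the identical 3′ arms, the 5′ arms of Mir103-1 and Mir103-2 are listed as separate mature miRNAs. The 5′ arm of Mir103-2 had 11 alignments in FCx and 51 in HP, and that of Mir103-1 had 1 and 18. Nearly all came from index 3: 19 of 19 for Mir103-1, 61 of 62 for Mir103-2 and 27 of 33 for Mir107. Without the HP library of index 3, Mir103-2 kept 12 and Mir103-1 kept 1.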

How the results depend on the processing

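Between the regions 2 of 431 miRNAs were called by edgeR. The count was 12 with DESeq2, 9 with edgeR's exact test, 8 without a filter, 0 with pooled lanes only and 0 to 7 with single libraries left out. With the replicate block it was 77 with TMM and 56 with library totals, and, chosen after seeing the data, 41 and 73 without index 7. None of these fits without a block called a member. The blocked fit with TMM alone called mmu-miR-16 and mmu-miR-195, and the block changed no other call of a member. The index test called 264 miRNAs, and 210 to 255 with single libraries left out.

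The FCx over HP log2 fold changes of mmu-miR-16 and mmu-miR-195 stayed negative in every alternative, with ranges of -0.92 to -0.10 and -1.67 to -0.17 with single libraries left out. With the block and library totals without index 7, however, mmu-miR-16 was at -0.0084 (SE 0.28), close to no difference, and mmu-miR-195 at -0.32 (SE 0.43). The fold changes of the other 5 members turned in some alternatives, and the cause was not tested. mmu-miR-15a turned to -0.10 with individual lanes, -0.13 with the replicate block, -0.47 with the block without index 7 and -0.091 with library totals in that fit, and ranged from -1.09 to 0.90 with single libraries left out. mmu-miR-15b turned to 0.053 with library totals, 0.083 with these and the block and 0.49 with pooled lanes (range -0.50 to 0.24). mmu-miR-497 turned to -0.23 with pooled lanes, -0.045 with the block and -0.18 with the block without index 7 (range -0.58 to 0.60). mmu-miR-103 (range -1.15 to 0.40) and mmu-miR-107 (range -0.92 to 0.36) turned to 0.088 and 0.19 in the block with library totals without index 7. Without the HP library of index 7 they were 0.40 and 0.36, and without the FCx library of index 11 0.01 and 0.10.

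Of the index ratios, index 11 over 3 turned only for mmu-miR-15b, to 0.025 with individual lanes (range -2.12 to 0.21). Index 7 over 3 turned for mmu-miR-15b to 0.069 with DESeq2 and 0.58 with individual lanes (range -0.73 to 0.74), and for mmu-miR-16 to -0.0092 with at least 10 counts, -0.31 with library totals, -0.13 without a filter and -0.046 with pooled lanes (range -0.27 to 0.33). The FCx minus HP difference in the share of mmu-miR-103 ranged from -2.26 to 0.38 percentage points with single libraries left out, and paired by index, a test added after seeing the data, it had p = 0.25 (exact permutation). The depth of FCx limits mmu-miR-15a, mmu-miR-15b and mmu-miR-195, which had 1 to 3 counts in the index 11 library.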
